A study of Mus musculus with 4 samples.

Results

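The ephrins and Eph receptors, the semaphorins and plexins, the netrins and Unc5 receptors and the Slits and Robo receptors were examined in cultured mouse epidermal stem cells. The genes were taken by name from the protein-coding rows of the deposited gene table: every Efna and Efnb, Epha and Ephb, Sema3 to Sema7, Plxn, Ntn1 to Ntn5, Unc5, Slit and Robo gene in it. This gave 65 of the 54532 genes, 34 encoding ligands and 31 encoding receptors. The epidermal stem cells (EpSCs), keratinocyte progenitors of the epidermis, came from skin of C57BL/6 mice and were kept in EpiLife medium with the supplement HKGS. Cells were exposed for 48 h to ALP at 30 μg/mL, taken to be the polysaccharide from Arctium lappa L. that the title of the series names, or to 0.06% DMSO as control. The labels do not say whether DMSO was also in the ALP cultures. Each group held 2 libraries of total RNA, called replicates A and B, letters that are names only and pair nothing. No label ties them to separate cultures or mice, so the p-values measure the spread between these libraries, which may be technical.

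Guidance molecules were first described in growing axons and also act between epithelial cells. Eph receptors are tyrosine kinases that bind ephrins on the neighbouring cell, the A-type ephrins held by a lipid anchor and the B-type ephrins by a transmembrane segment, and binding can signal into both cells. In epidermis, EphA2 and ephrin-A1 are known for their part in keratinocyte adhesion and differentiation. Semaphorins act through plexins, which regulate small GTPases and integrins, and most secreted class 3 semaphorins also need a neuropilin. Netrins bind DCC, neogenin and Unc5 receptors, and Slits bind Robo receptors.

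Of the 65 genes, 47 had enough counts to be tested, and 21 of these changed between ALP and control in edgeR's quasi-likelihood test at an adjusted p under 0.05. The 8 genes that rose were Epha2, Efnb1, Efnb2, Ephb2, Sema3e, Plxnb2, Ntn1 and Robo3. Robo3 passed the low-count filter through the ALP libraries alone, so that it had to differ to be tested. It is kept in the counts that follow. The 13 that fell were Efna1, Efna3, Epha4, Sema3d, Sema4g, Sema5a, Plxna3, Plxnb1, Ntn4, Unc5b, Slit2, Robo1 and Robo2. Among all 14056 genes tested, 18.0% were called higher and 12.9% lower, against 17% and 27.7% of the tested guidance genes. The median log2 fold change was -0.35 over the 47 genes and -0.00 over all genes tested. A change of at least 2-fold was called upward in 5 of the 47 guidance genes and downward in 10, against 812 and 744 of all 14056 genes. By role, 4 ligand genes rose and 7 fell of 28 tested, and 4 receptor genes rose and 6 fell of 19 tested. At an unadjusted p under 0.05 there were 30 of the 47 guidance genes and 6552 of all 14056 genes tested. When control replicate A or B was left out, edgeR called 0 of all genes tested, and 20 and 21 guidance genes in those fits had a p under 0.05 before adjustment. The fit lacking ALP replicate A assumes that the lone ALP library varies like the controls. It called more guidance genes lower than the fit on all libraries, and more of all genes in each direction. The guidance genes called in it and not in the fit on all libraries, all lower, were Efna2, Efna4, Efna5, Ephb3, Ephb6, Plxna2, Sema3f, Sema4b, Sema4c, Sema6a and Sema6c. On the 4 libraries together, DESeq2's Wald test called 17 guidance genes and limma-voom 22. Over all genes they called 2366 and 2624 higher and 1753 and 2117 lower.

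**Figure D1:**
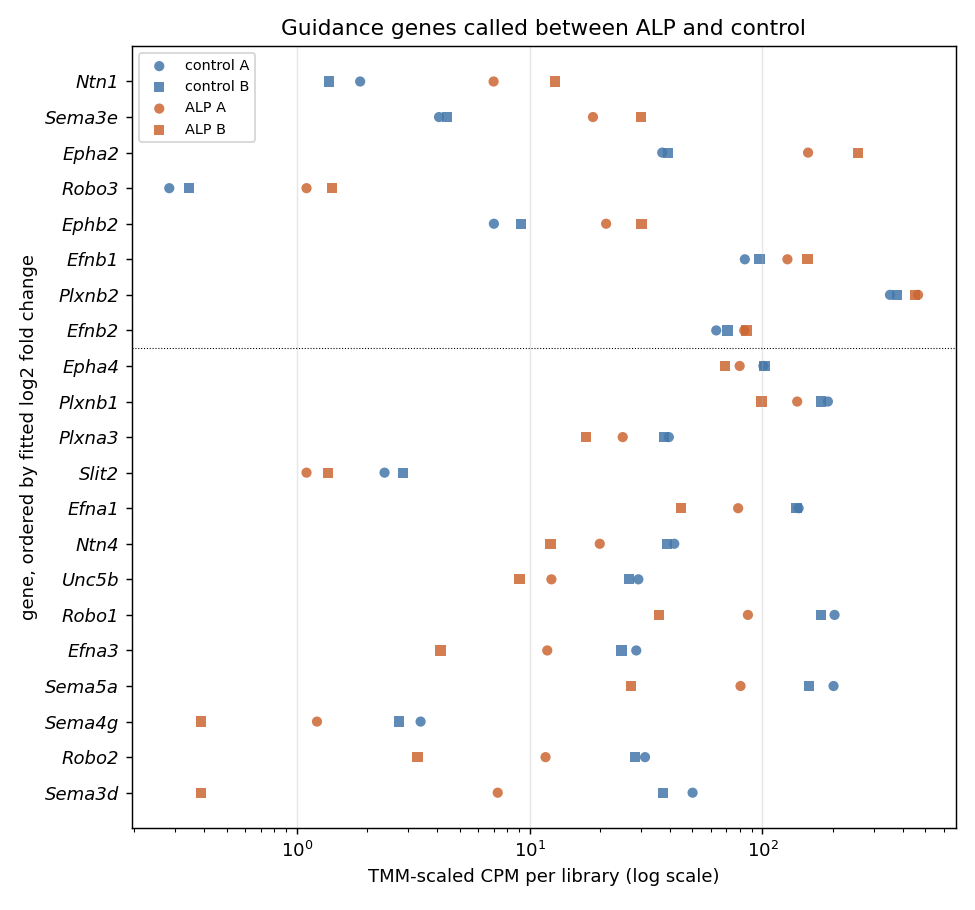
Level of each of the 21 called guidance genes in every library, on a log axis of TMM-scaled CPM (counts per 1000000), with circles for replicate A and squares for replicate B. Orange ALP points lie to the right of the blue control points in the 8 genes above the dotted line and to the left in the 13 below it, with the widest gap between the ALP libraries in Sema3d, at 7.29 and 0.388 CPM.

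Total counts ran from 15766244 to 17430345 per library, so that 3 counts, the limit that a count of 0 allows, corresponded to between 0.172 and 0.19 CPM for counting error alone. The label as epidermal stem cells was checked on basal keratinocyte markers. The 7 markers summed to 36206 and 29852 CPM in the ALP libraries and to 48354 and 48537 CPM in the controls. Itga6 and Itgb4 were called higher and Col17a1 and Trp63 lower (28.6% each way, against 18.0% and 12.9% of all genes tested). Krt5, Krt14 and Krt15 were lower in both ALP libraries than in both controls. In edgeR's test they were not called (adjusted p = 0.0719, 0.0982 and 0.12). Krt5 and Krt14 made up most of the sum. Krt15 measured 58.4 and 1.75 CPM in ALP against 251 and 201 CPM in control. Of 7 markers of differentiating keratinocytes, 3 fell (42.9%), Lor, Scel and Flg, and 1, Ivl, rose (14.3%). The shares over all genes tested were 12.9% and 18.0%. The 7 summed to 872 and 46.7 CPM in ALP against 3360 and 2789 CPM in control. Most of the control sum came from Krt1 (663 and 19.7 CPM in ALP against 2511 and 2086 CPM) and Krt10. Neither was called. The groups did not overlap in either sum, and ALP replicate B was the lowest library in both. Bulk RNA does not tell fewer cells of a type from less of a transcript per cell.

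The promoters of 5 genes are shown because members of one ligand and receptor system moved in opposite directions: Epha2 against its ligand gene Efna1, Sema3e against Sema3d, and the netrin receptor gene Unc5b, which fell while the ligand gene Ntn1 rose. They were chosen after these values were seen. Each is the 250 bases before the start site of the RefSeq transcript in build GRCm38.p6, printed 5′ to 3′ on the strand of the gene. That start site lies 191 bases inside the gene as deposited for Efna1 and 219 bases before it for Sema3d. It lies 19 bases before the gene for Epha2 and at the 5′ end of the gene for Sema3e and Unc5b. Capitals mark matches, on either strand, to a cyclic AMP response element (CRE, TGACGTCA) or to the GC box (GGGCGG). The positions are chr4:141300971-141301220 on the plus strand for Epha2, chr3:89280952-89281201 on the minus strand for Efna1 and chr5:14025026-14025275 on the plus strand for Sema3e. They are chr5:12382916-12383165 on the plus strand for Sema3d and chr10:60831582-60831831 on the minus strand for Unc5b.
Epha2: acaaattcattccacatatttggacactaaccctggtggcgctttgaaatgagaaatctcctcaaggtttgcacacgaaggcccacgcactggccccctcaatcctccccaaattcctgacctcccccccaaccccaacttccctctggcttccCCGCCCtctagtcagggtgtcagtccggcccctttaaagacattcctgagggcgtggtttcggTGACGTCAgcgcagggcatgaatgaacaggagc
Efna1: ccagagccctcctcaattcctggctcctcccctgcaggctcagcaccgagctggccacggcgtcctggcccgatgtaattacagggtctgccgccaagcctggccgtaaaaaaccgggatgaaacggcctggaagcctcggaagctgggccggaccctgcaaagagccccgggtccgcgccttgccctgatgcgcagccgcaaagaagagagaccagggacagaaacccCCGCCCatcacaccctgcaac
Sema3e: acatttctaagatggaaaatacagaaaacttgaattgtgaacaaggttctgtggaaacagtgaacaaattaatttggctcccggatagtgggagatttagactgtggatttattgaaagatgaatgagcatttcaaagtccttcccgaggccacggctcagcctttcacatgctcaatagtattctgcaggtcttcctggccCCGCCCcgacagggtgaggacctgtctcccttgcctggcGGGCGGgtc
Sema3d: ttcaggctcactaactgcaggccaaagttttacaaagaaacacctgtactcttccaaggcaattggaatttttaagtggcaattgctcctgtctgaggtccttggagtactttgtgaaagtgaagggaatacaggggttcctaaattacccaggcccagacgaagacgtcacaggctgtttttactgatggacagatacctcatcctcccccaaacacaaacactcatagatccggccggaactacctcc
Unc5b: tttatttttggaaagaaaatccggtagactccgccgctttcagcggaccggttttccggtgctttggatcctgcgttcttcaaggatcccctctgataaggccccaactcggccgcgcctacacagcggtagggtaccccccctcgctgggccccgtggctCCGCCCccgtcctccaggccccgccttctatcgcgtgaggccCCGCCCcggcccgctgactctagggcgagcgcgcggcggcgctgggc
The Epha2 promoter held the CRE, whose first base lies 33 bases before the start site, and 1 GC box. Those of Efna1, Sema3e and Unc5b held 1, 2 and 2 GC boxes in these bases, and that of Sema3d held no match to any motif searched.

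Promoters of 300 bases, 250 before to 50 after the start, were found in RefSeq for 56 of the 65 genes and searched on both strands for AP-1 (TGANTCA), ETS (CCGGAAGT), E-box (CACGTG), CRE and GC box motifs, none of which contains another. For the guidance genes and the tested protein-coding genes, 1 promoter per gene was used, the one starting nearest the 5′ end of the deposited gene. The set of all 32851 promoters was not reduced in this way and includes genes not tested, so its shares are not a like comparison. Among the 40 tested guidance genes with a promoter, the GC box was found in 32 (80%), against 66.4% of 9645 tested protein-coding genes and 35.7% of all 32851 promoters. The CRE was found in 1 (2.5%), that of Epha2, against 3.35% of the tested protein-coding genes and 1.79% of all promoters. An E-box stood in 2 (5%), Sema3e at 23 bases after the start and Sema6d, against 10.2% and 7.15%, and AP-1 in 1 (2.5%), Sema4c, against 4.84% and 7.81%. The ETS motif was found in 0, against 8.7% and 3.89%. Of the 13 promoters of genes that fell, 10 held a GC box and none held any of the other 4 motifs. The guidance promoters had a median GC content of 65.2%, against 61.3% for tested protein-coding genes. These matches are letters in a window and were not set against any binding data.

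Of the 5 A-type ephrin genes 2 fell in ALP and 3 were not called, while the gene of one of their receptors rose. Among all genes tested 12.9% were called lower and 18.0% higher. Efna1, encoding ephrin-A1 (ENSMUSG00000027954, chromosome 3, 89271733 to 89281142, minus strand, GRCm38), measured 78.6 and 44.7 CPM in the ALP libraries and 143 and 140 CPM in the controls, replicate A first, an order that all values below follow. Both ALP libraries lay below both controls, and ALP replicate B was the lowest. On the log2 scale Efna1 fell by 1.20 ± 0.26 (standard error, 2 libraries per group, adjusted p = 0.0251), a 2.29-fold lower level. Efna3, its neighbour at a distance of 32.8 kb with no protein-coding gene between them, measured 11.9 and 4.14 CPM against 28.7 and 24.8 CPM. The groups did not overlap, and Efna3 fell by 1.73 ± 0.45 (adjusted p = 0.0378), or by 2.70 without ALP replicate A. Of the exon bases of Efna3, 14.1% overlap a gene on the opposite strand, Gm15998, which had 8 counts over the 4 libraries against 1211 for Efna3.

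The other 3 A-type ephrin genes did not pass. Efna5 measured 41.1 and 34.6 CPM against 45.2 and 44.8 CPM, with a log2 difference of -0.25 ± 0.12 (adjusted p = 0.157). Efna4, 10.4 kb from Efna3, and Efna2 had log2 differences of -0.43 and -0.74. Efna4 was called when library totals alone set the scale, in limma-voom and with the stricter low-count filter. Leaving out ALP replicate A gave log2 differences of -0.40 for Efna4, -0.98 for Efna2 and -0.39 for Efna5. Levels of different genes are compared per length, as CPM divided by the gene's length in kilobases (CPM per kb). Summed over the class, the A-type ephrins stood at 69.6 and 46.0 CPM per kb in ALP and at 117 and 115 in control. Efna1 made up 61.7% and 53.1% of that sum in ALP and 67.0% and 66.6% in control. The sums of the groups did not overlap.

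Epha2 was the Eph receptor gene with the largest rise. It encodes EphA2, the receptor best known as a partner of ephrin-A1, and lies on chromosome 4 (ENSMUSG00000006445, 141301240 to 141329384, plus strand). Its level was 157 and 257 CPM in ALP and 37.1 and 39.4 CPM in control. Both ALP libraries stood far above the control pair, with ALP replicate B the higher. Epha2 rose by 2.43 ± 0.24 on the log2 scale, 5.41-fold (adjusted p = 0.0149). Epha4, encoding a receptor that binds ephrins of both types, measured 79.8 and 68.9 CPM against 101 and 102 CPM. It fell by 0.45 ± 0.10 (adjusted p = 0.0284), with no overlap between the groups. Epha1, encoding a receptor of epithelia, measured 106 and 107 CPM against 89.6 and 93.4 CPM. That log2 difference, 0.22 ± 0.08, did not pass (adjusted p = 0.0839), although both ALP libraries lay above both controls. Of the exon bases of Epha1, 6.01% overlap Zyx on the opposite strand, which had 30002 counts over the 4 libraries against 6718 for Epha1.

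Per length, Epha2 took 47.4% and 60.4% of the summed EphA CPM per kb in ALP and 18.3% and 18.7% in control. Epha1 took 38.3% and 30.1% against 52.6% and 52.9%, and Epha4 14.0% and 9.40% against 29.0% and 28.2%. The leading EphA transcript per length was thus Epha2 in both ALP libraries and Epha1 in both controls. The summed EphA level was 70.7 and 90.9 CPM per kb in ALP and 43.4 and 44.9 in control. Among all 65 genes ordered by mean CPM per kb within a group, Epha2 stood at place 21 in control (8.18 CPM per kb) and at place 3 in ALP (44.2 CPM per kb), where its range overlapped that of the next gene, Efnb1. Efna1 stood at place 2 in control (77.2 CPM per kb) and at place 6 in ALP (33.7 CPM per kb), overlapping its neighbour below, Epha1. The order of Epha2 and Efna1 differed between the ALP libraries. Efna1 lay above Epha2 in ALP replicate A (42.9 against 33.5 CPM per kb) and below it in ALP replicate B (24.4 against 54.9). Of the other EphA genes, Epha7 was tested, at no more than 0.81 CPM in any library, and did not pass. Epha3, Epha5 and Epha8 had too few counts to be tested, and Epha6 and Epha10 had a count of 0 in all 4 libraries.

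**Figure D2:**
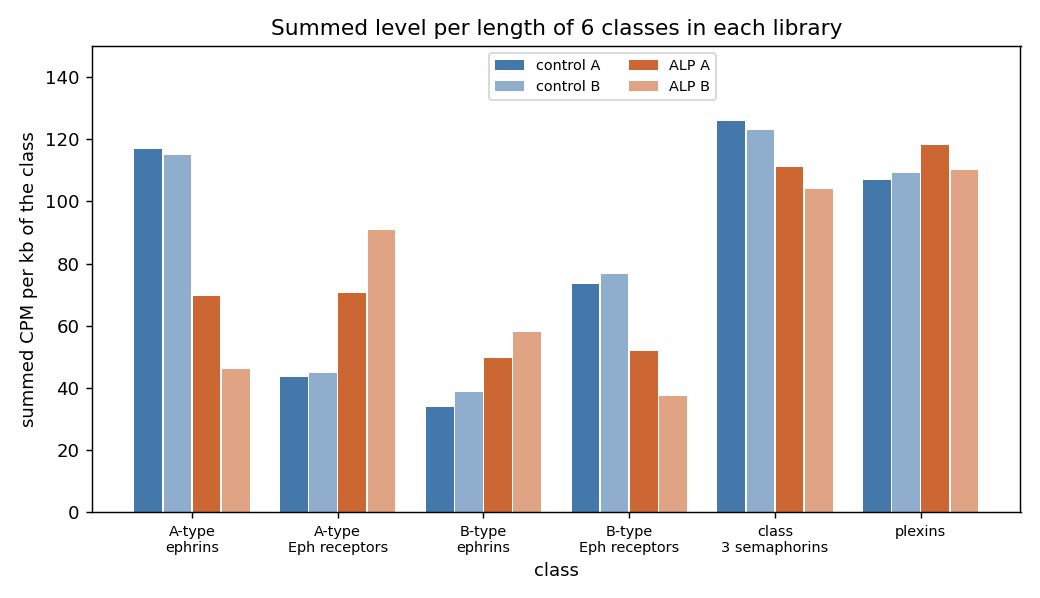
Summed CPM per kb of 6 classes in each library, with blue bars for control and orange bars for ALP, the paler bar of each colour being replicate B. The A-type ephrins stand at 117 and 115 in control and at 69.6 and 46.0 in ALP, the A-type Eph receptors at 43.4 and 44.9 and at 70.7 and 90.9, and the plexins between 107 and 118 in all libraries.

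Of the 3 B-type ephrin genes 2 rose and none fell, where 18.0% of all genes tested were called higher and 12.9% lower. Efnb1, encoding ephrin-B1, measured 128 and 156 CPM in ALP and 84.0 and 97.1 CPM in control, and rose by 0.65 ± 0.13 (adjusted p = 0.0226). Efnb2, encoding ephrin-B2, measured 83.5 and 85.4 CPM against 63.3 and 70.8 CPM. The groups did not overlap in either gene. Efnb2 rose by 0.33 ± 0.10 (adjusted p = 0.0488), and this call was lost with other scalings, with the stricter low-count filter and in DESeq2's test. Efnb3 was at no more than 1.45 CPM in any library and did not pass. Per length, Efnb1 held 74.5% and 77.9% of the B-type ephrin sum in ALP and 71.6% and 72.5% in control, and the sum itself was 49.6 and 58.0 CPM per kb against 34.0 and 38.8.

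Among the B-type receptors, Ephb2 rose. Its level was 21.3 and 30.2 CPM in ALP and 7.02 and 9.20 CPM in control, and both ALP libraries were above both controls. The rise was 1.67 ± 0.24 on the log2 scale, 3.17-fold (adjusted p = 0.0151). Ephb6, which encodes a receptor without kinase activity, measured 64.3 and 14.9 CPM against 159 and 153 CPM. The controls were close to each other and both ALP libraries lay below them, but they lay far from each other. The fitted difference of -1.97 ± 0.61 did not pass (adjusted p = 0.0583). It was -3.39 when ALP replicate A was left out and -1.27 when ALP replicate B was. On all 4 libraries limma-voom called Ephb6 lower, at -2.30 (adjusted p = 0.0273), and DESeq2's Wald test did not call it (adjusted p = 0.0911). Ephb3 measured 65.6 and 52.6 CPM against 74.1 and 77.8 CPM and was not called (-0.36 ± 0.13 on the log2 scale, adjusted p = 0.0799).

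Ephb4, whose product is known as the receptor of ephrin-B2, measured 108 and 106 CPM against 90.2 and 110 CPM. The groups overlapped, and Ephb4 was not called (0.10 ± 0.12 on the log2 scale, adjusted p = 0.537). Its sign turned, to -0.05, without control replicate A. Ephb6 was the EphB gene with the most CPM per kb in control, at 57.5% and 52.8% of the class sum, whereas in ALP it held 32.8% and 10.6% and Ephb4 led with 44.8% and 61.5%. Ephb1 had too few counts to be tested.

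The class 3 semaphorins are secreted, and the most abundant of them was not called while 2 scarcer ones moved in opposite directions. In this class 1 of 6 tested genes rose and 1 fell (16.7% each), against 18.0% and 12.9% of all genes tested. Sema3e, whose product binds plexin-D1 without a neuropilin (ENSMUSG00000063531, chromosome 5, 14025276 to 14256689, plus strand), measured 18.7 and 30.1 CPM in ALP and 4.08 and 4.40 CPM in control. Both ALP libraries were high and the controls nearly equal. Sema3e rose by 2.52 ± 0.28, 5.74-fold (adjusted p = 0.0149). Sema3d, whose product acts through neuropilins (ENSMUSG00000040254, chromosome 5, 12383385 to 12588948, plus strand), measured 7.29 and 0.388 CPM against 50.1 and 37.5 CPM. Both ALP libraries were low, and ALP replicate B held only 6 counts. Sema3d fell by 3.48 ± 0.87 (adjusted p = 0.0352), an 11.2-fold lower level. Its fitted change was -6.80 when ALP replicate A was left out and -2.57 when ALP replicate B was. In DESeq2's Wald test it did not pass. Between them on chromosome 5 lies Sema3a, which was at no more than 0.752 CPM and did not pass.

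Sema3c, encoding a further secreted semaphorin, measured 556 and 584 CPM in ALP and 592 and 587 CPM in control. The ALP libraries lay just below the controls, and Sema3c was not called (-0.05 ± 0.08 on the log2 scale, adjusted p = 0.682). Per length Sema3c was the leading gene of all 65 in both groups, at 77.8 and 81.7 CPM per kb in ALP and 82.9 and 82.2 in control. Sema3f, encoding a ligand of neuropilin-2, measured 155 and 100 CPM against 193 and 187 CPM, a log2 difference of -0.58 ± 0.20 (adjusted p = 0.0767). It did not pass in edgeR's test and passed in DESeq2's, as it did in the authors' deposited table, with -0.58 on the log2 scale and an adjusted p of 0.0204. Sema3e, the gene that rose, held 1.82% and 3.10% of the class 3 CPM per kb in ALP and 0.347% and 0.384% in control. Sema3b did not pass, and Sema3g had too few counts to be tested.

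Of the 9 tested semaphorins of classes 4 to 7, which are mostly bound to the membrane, none rose and 2 fell (22.2%). Over all genes tested, 18.0% were called higher and 12.9% lower. Sema5a, encoding a semaphorin with thrombospondin repeats, measured 80.5 and 27.2 CPM in ALP and 202 and 158 CPM in control. The groups did not overlap, and ALP replicate B was the lowest library. Sema5a fell by 1.74 ± 0.48 (adjusted p = 0.0444) but did not pass in DESeq2's test. Its fitted change was -2.73 when ALP replicate A was left out and -1.15 when ALP replicate B was. Sema4g measured 1.22 and 0.388 CPM against 3.4 and 2.74 CPM and fell by 1.90 ± 0.48 (adjusted p = 0.0365), or by 2.97 without ALP replicate A. It is a scarce transcript whose groups did not overlap.

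The 3 class 4 genes with levels above 20 CPM did not pass. Sema4b, the leading gene of these classes per length at 13.3 and 10.3 CPM per kb in ALP and 15.6 and 15.5 in control, measured 75.3 and 58.4 CPM against 87.9 and 87.6 CPM (log2 difference -0.39 ± 0.14, adjusted p = 0.0771). Sema4d, encoding the ligand of plexin-B1, measured 63.8 and 67.6 CPM against 47.9 and 60.5 CPM (0.28 ± 0.13, adjusted p = 0.162). Sema4a measured 28.3 and 27.6 CPM against 24.7 and 25.3 CPM (0.16 ± 0.11, adjusted p = 0.3). Sema4b was lower and Sema4a and Sema4d were higher in both ALP libraries than in both controls. Sema4c, Sema6a, Sema6c and Sema6d had log2 differences of -0.54, -0.54, -1.52 and -0.06 and did not pass. When ALP replicate A was left out, Sema4c, Sema6a and Sema6c had fitted changes of -0.73, -1.21 and -3.21. Sema4f, Sema5b, Sema6b and Sema7a had too few counts to be tested.

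Of the 7 tested plexin genes 1 rose (14.3%) and 2 fell (28.6%), each less than 2-fold, against 18.0% and 12.9% of all genes tested. Plxnb2, encoding plexin-B2, the plexin best known in epithelia, measured 466 and 452 CPM in ALP and 353 and 379 CPM in control. Both ALP libraries were above both controls. Plxnb2 rose by 0.33 ± 0.09, 1.25-fold (adjusted p = 0.0387), and was not called when libraries were scaled by their totals alone. Plxnb1, encoding the plexin that binds Sema4d, measured 141 and 99.0 CPM against 191 and 178 CPM and fell by 0.62 ± 0.17 (adjusted p = 0.0455). Plxna3, encoding a partner of neuropilin-2 in Sema3f signalling, measured 25.1 and 17.5 CPM against 39.6 and 37.9 CPM and fell by 0.87 ± 0.19 (adjusted p = 0.0256). Neither gene's groups overlapped.

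Plxna1 and Plxna2 did not pass. Plxna1 measured 327 and 321 CPM against 294 and 295 CPM (log2 difference 0.14 ± 0.08, adjusted p = 0.218), and Plxna2 measured 55.0 and 41.5 CPM against 62.2 and 58.4 CPM (-0.32 ± 0.15, adjusted p = 0.153). In each the groups did not overlap. Plxnd1, encoding the plexin of Sema3e, was at 3.11 to 4.28 CPM in all libraries, with overlapping groups and a log2 difference of 0.13 ± 0.26 (adjusted p = 0.728). Per length Plxnb2 made up 51.0% and 53.5% of the plexin sum in ALP and 42.6% and 45.0% in control, and the sum lay between 107 and 118 CPM per kb in all libraries. Plxnc1 did not pass, and Plxna4 and Plxnb3 had too few counts to be tested.

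**Figure D3:**
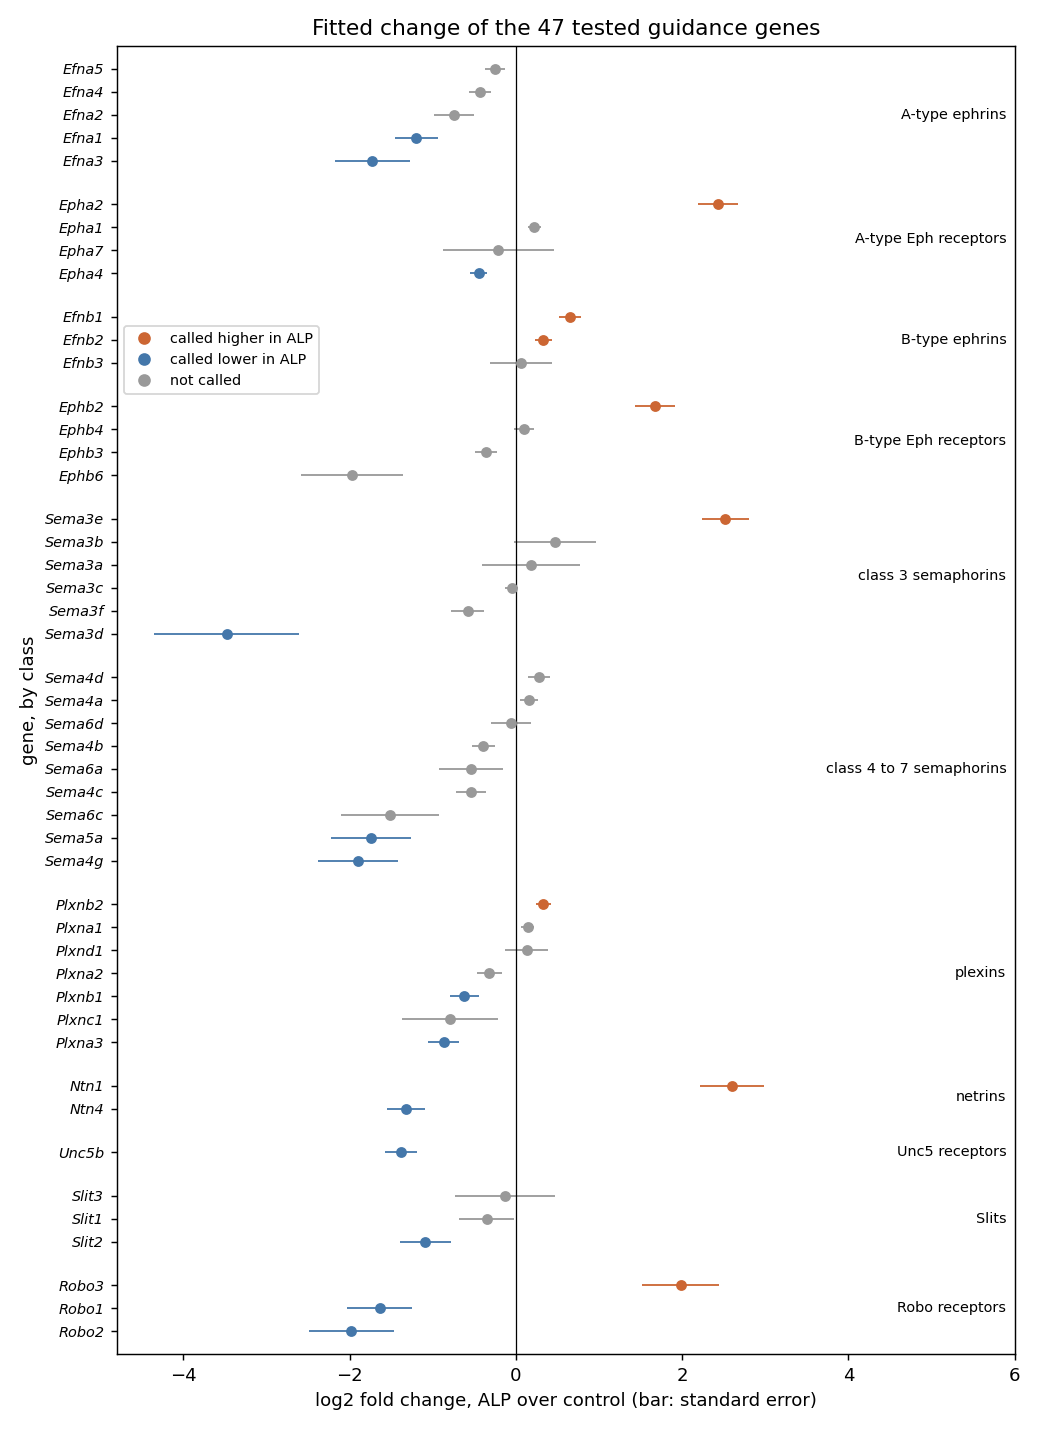
Fitted log2 fold change of ALP over control for the 47 tested guidance genes, grouped by class, with bars for the standard error and colour for the call at an adjusted p under 0.05. The 3 points farthest to the right are Ntn1 (2.60), Sema3e (2.52) and Epha2 (2.43), and the point farthest to the left is Sema3d (-3.48).

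The netrin genes moved in opposite directions. Ntn1, encoding netrin-1 (ENSMUSG00000020902, chromosome 11, 68209364 to 68400823, minus strand), measured 7 and 12.8 CPM in ALP and 1.87 and 1.37 CPM in control. Both ALP libraries were above both controls. Ntn1 rose by 2.60 ± 0.39, 6.06-fold (adjusted p = 0.0151), the largest rise of the 47 genes. Ntn4, encoding netrin-4, a laminin-binding component of basement membranes, measured 20 and 12.3 CPM against 41.8 and 39.0 CPM. It fell by 1.32 ± 0.23 (adjusted p = 0.0175), 2.50-fold, without overlap of the groups. Per length Ntn4 still led the class in each library, at 82.7% and 61.7% of the netrin sum in ALP and 97.4% and 97.9% in control. Ntn5 had a count of 0 in all libraries.

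Unc5b, encoding a receptor of netrin-1, was the only Unc5 gene with enough counts to be tested. It lies on chromosome 10 (ENSMUSG00000020099, 60762593 to 60831581, minus strand) and measured 12.4 and 9.05 CPM in ALP and 29.3 and 26.7 CPM in control. Both ALP libraries were low. Unc5b fell by 1.38 ± 0.19, a 2.60-fold lower level (adjusted p = 0.015). Neo1, encoding neogenin, measured 97.7 and 83.5 CPM against 104 and 94.9 CPM, with overlapping groups, and was not called (-0.14 ± 0.11 on the log2 scale, adjusted p = 0.38). Dcc, encoding the founding netrin receptor, had a count of 0 in all 4 libraries. Unc5a, Unc5c and Unc5d were at no more than 0.711 CPM.

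Among the Slit and Robo genes the receptors held most of the level per length. Robo1 (ENSMUSG00000022883, chromosome 16, 72308306 to 73046095, plus strand) measured 86.6 and 36.0 CPM in ALP and 204 and 178 CPM in control. Robo2, 846 kb away with no protein-coding gene between them (ENSMUSG00000052516, 73891839 to 74411825, minus strand), measured 11.7 and 3.30 CPM against 31.3 and 28.3 CPM. In both genes the ALP libraries lay below the controls and ALP replicate B was the lowest. Robo1 fell by 1.64 ± 0.39 (adjusted p = 0.0316), or by 2.41 without ALP replicate A. Robo2 fell by 1.98 ± 0.51 (adjusted p = 0.0379), with a fitted change of -3.18 when ALP replicate A was left out and -1.34 when ALP replicate B was. The neighbouring pair thus fell together, and per length Robo1 held between 84.4% and 86.7% of the Robo sum in every library.

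Robo3, which encodes a Robo family member that does not bind Slits in mammals, measured 1.10 and 1.42 CPM in ALP and 0.283 and 0.343 CPM in control. It rose by 1.98 ± 0.46 (adjusted p = 0.0301). Of the tested guidance genes it was the 1 that passed the low-count filter through the ALP libraries alone, so that it had to differ to be tested, and the stricter filter dropped it. Of the ligands, Slit2 measured 1.10 and 1.36 CPM against 2.38 and 2.86 CPM and fell by 1.09 ± 0.31 (adjusted p = 0.0486). The groups did not overlap, but the call was lost in DESeq2's test, in limma-voom, in the earlier form of edgeR's fit and without ALP replicate A. Slit1, the leading Slit per length at 0.295 to 0.526 CPM per kb, measured 2.37 and 1.75 CPM against 3.11 and 2.17 CPM, with overlapping groups, and was not called (-0.35 ± 0.33 on the log2 scale, adjusted p = 0.442). Slit3 did not pass either, and Robo4 had a count of 0 in all libraries.

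The co-receptors and intracellular partners of these families were read from a list of 62 genes, of which 55 were tested, 11 rose (20%) and 10 fell (18.2%), against 18.0% and 12.9% of all genes tested. Their median log2 fold change was -0.04, against -0.00 over all genes tested. The fit lacking ALP replicate A called more of these genes in each direction, as it did over all genes. The fits lacking control replicate A or B called none of these genes, and none over all genes. The neuropilin genes, whose products bind class 3 semaphorins, both rose. Nrp1 measured 19.3 and 29.0 CPM in ALP and 3.68 and 5.83 CPM in control, and Nrp2 measured 226 and 281 CPM against 102 and 132 CPM. In both genes the ALP libraries stood above the controls. Nrp1 rose by 2.34 ± 0.31, 5.07-fold (adjusted p = 0.0149), and Nrp2 by 1.11 ± 0.17, 2.16-fold (adjusted p = 0.0151). Met, encoding the receptor of hepatocyte growth factor, which can pair with B-type plexins, measured 385 and 507 CPM against 163 and 194 CPM and rose by 1.32 ± 0.16 (adjusted p = 0.0149). Mical2, encoding an actin-oxidising enzyme of a family that acts behind plexins, measured 368 and 463 CPM against 190 and 225 CPM and rose 2-fold (1.0 ± 0.15 on the log2 scale, adjusted p = 0.0151). Dpysl2, encoding the collapsin response mediator CRMP2, measured 25.6 and 31.3 CPM against 8.55 and 12.6 CPM and rose by 1.43 ± 0.22 (adjusted p = 0.0155). In each of these genes ALP replicate B was the highest library.

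The effectors that fell with the smallest p-values changed by less, apart from Vav3. Flrt2, encoding a membrane ligand of Unc5 receptors, measured 909 and 794 CPM in ALP and 1249 and 1331 CPM in control and fell by 0.60 ± 0.11 (adjusted p = 0.0191). Fyn, encoding a Src-family kinase downstream of Eph and plexin receptors, measured 15.9 and 15.1 CPM against 24.3 and 24.3 CPM and fell by 0.65 ± 0.12 (adjusted p = 0.0199). In both the groups were well apart. The adaptor gene Grb7 measured 18.6 and 15.7 CPM against 27.5 and 25.5 CPM and fell by 0.63 ± 0.14 (adjusted p = 0.0282). Enah, encoding an actin regulator of the Ena/VASP family, measured 534 and 413 CPM against 726 and 706 CPM and fell by 0.60 ± 0.14 (adjusted p = 0.0299). Again neither gene's groups overlapped. Vav3, encoding a signalling protein that Eph receptors recruit, measured 67.8 and 32.8 CPM against 144 and 116 CPM and fell by 1.37 ± 0.33 (adjusted p = 0.0336), or by 1.99 without ALP replicate A.

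**Figure D4:**
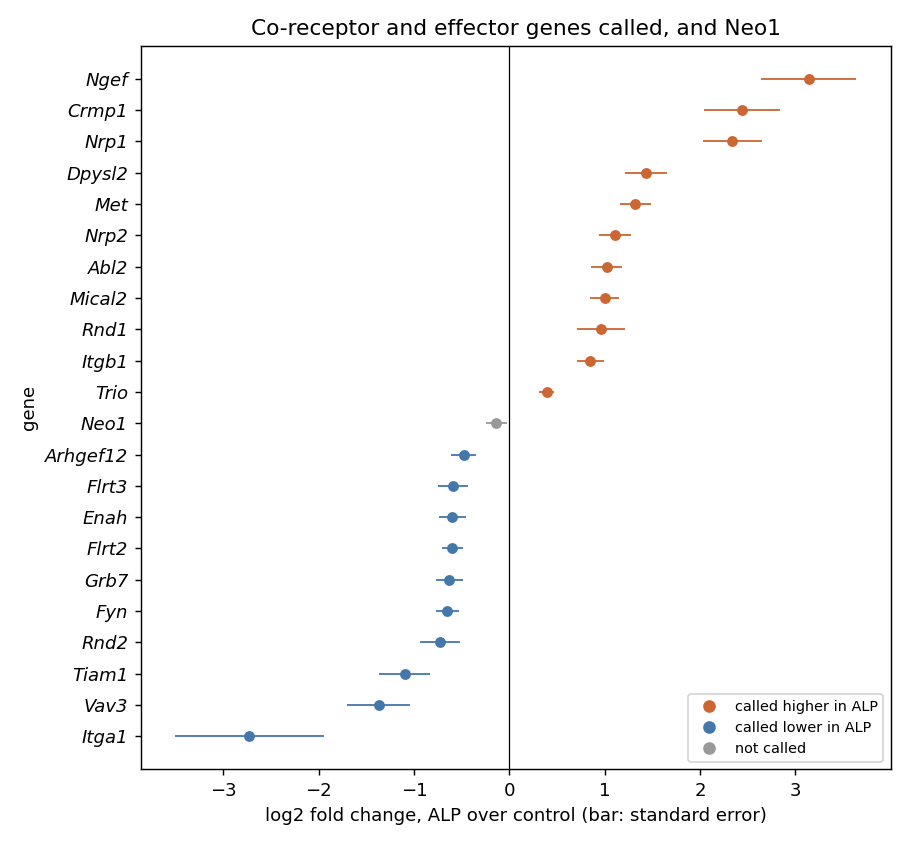
Fitted log2 fold change of the 21 called genes among the 55 tested co-receptor and effector genes, and of Neo1 in grey (-0.14), with bars for the standard error. The neuropilin genes lie to the right, at 2.34 for Nrp1 and 1.11 for Nrp2, and 7 of the 10 genes that fell lie within 1 log2 unit of 0.

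The ALP libraries differed from each other in how far they lay from the controls. Of the 13 guidance genes that fell, 12 were lower in ALP replicate B than in ALP replicate A (92.3%), Slit2 being the exception, and of the 8 that rose, 7 were higher in ALP replicate B (87.5%), Plxnb2 being the exception. Over all called genes these shares were 91.3% and 92.5%. Set against the mean of the controls, the guidance genes that fell had a median log2 difference of -1.16 in the A library of ALP and -1.72 in the B library, and those that rose had medians of 1.60 and 2.04. In all called genes the medians were -0.67 and -1.03 for those that fell and 0.63 and 0.85 for those that rose. The summed level of the differentiating keratinocyte markers was likewise lowest in ALP replicate B, with Krt10, not itself called, at 150 and 5.04 CPM in ALP against 669 and 545 CPM in control. The part of these markers in the guidance results was not tested.

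**Figure D5:**
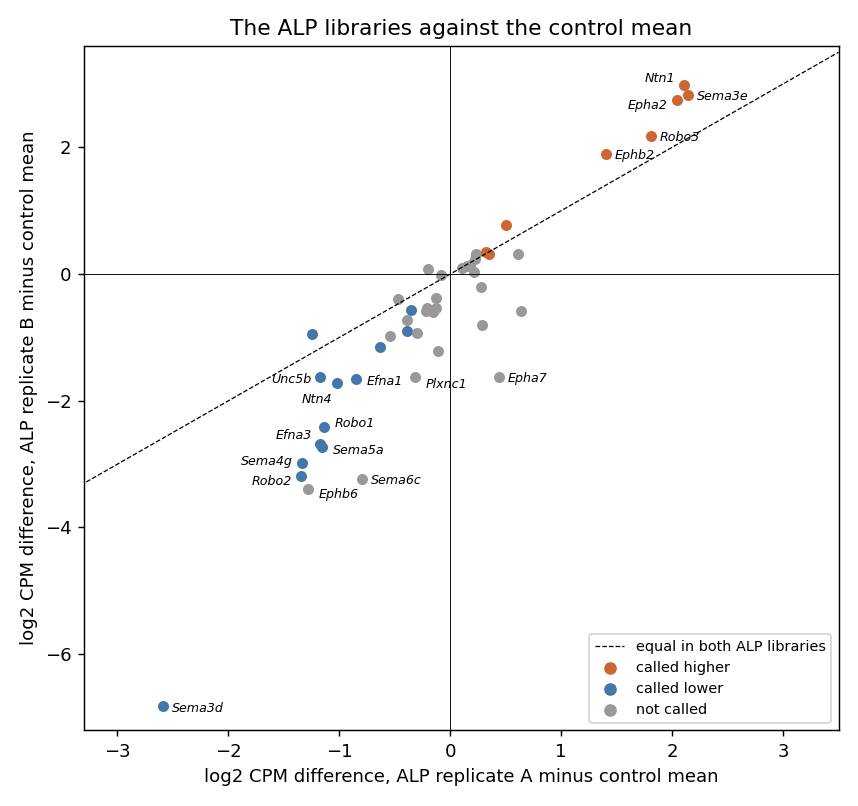
Log2 difference in CPM from the control mean for the 47 tested guidance genes, ALP replicate A on the horizontal and ALP replicate B on the vertical axis, with the dashed line marking equal differences. Most genes that fell lie below the line, farthest in Sema3d, and most that rose lie above it, so that 12 of 13 and 7 of 8 were farther from the controls in ALP replicate B.

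Several of these genes are also transcribed in neurons, vessels and fibroblasts, and markers of those cells were read in the same libraries. Of 5 endothelial markers, 3 were tested. Kdr (6.08 and 11 CPM against 0.51 and 1.03 CPM) and Pecam1 rose and Tek fell, while Emcn was at 0 in all libraries and Cdh5 at no more than 0.113 CPM, and the summed level was 14.6 and 25.0 CPM in ALP and 6.17 and 7.71 CPM in control. Of 5 neuronal markers 2 were tested. Tubb3 rose, from 11.2 and 13.9 CPM to 45.6 and 62.6 CPM, and Map2, at 6.6 and 2.52 CPM in ALP and 10.2 and 8.63 CPM in control, was not called (log2 difference -1.03). Rbfox3 was at 0 and Snap25 and Syt1 at no more than 0.174 CPM. The neuronal sum was 52.4 and 65.1 CPM against 21.6 and 22.6 CPM, and only Tubb3 among the markers in it was higher in both ALP libraries. Fibroblast markers summed to 8.79 and 4.85 CPM in ALP and 18.0 and 14.3 CPM in control, with Lum at 0. Of the 6 fibroblast markers tested, Dcn was called lower (3.07 and 0.517 CPM against 13.1 and 8.57 CPM) and 5 were not called, and the median log2 difference was 0.02. None of the 5 melanocyte markers, all tested, and neither of the 2 Schwann cell markers tested out of 5 was called. The 5 immune markers had too few counts to be tested, with Cd3e and Cd207 at 0. The sums of these 3 lists, in the order given, were 53.7 to 64.7, 1.71 to 3.53 and 0.129 to 0.453 CPM over the libraries. The part of any of these markers in the guidance results was not tested.

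In the authors' deposited table, 6 guidance genes had an adjusted p under 0.05 upward and 10 downward, and 15 of these 16 calls were also called here in the same direction. The authors' deposited table gave Epha2 a log2 fold change of 2.44 with an adjusted p of 5.25e-22. The other 6 genes called here did not pass in the authors' deposited table, where Sema3d (-3.52), Sema5a (-1.75), Efnb2 (0.34), Robo2 (-1.99), Robo3 (2.01) and Slit2 (-1.09) carried adjusted p-values of 0.0758, 0.0523, 0.0744, 0.0511, 0.0901 and 0.156. Both rest on the same counts, so the authors' deposited table is not separate evidence.

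Of the 65 genes, 18 were not tested, 4 with a count of 0 in all libraries and 14 with at most 11 counts in any library, at no more than 0.711 CPM. Without the low-count filter the 14 genes with counts were tested as well, in a fit of edgeR that called 0 guidance genes, with 30 at an unadjusted p under 0.05. By level per length, 13 guidance genes had a mean of at least 10 CPM per kb in ALP and 18 in control. The summed level of all receptor genes was 249 and 242 CPM per kb in ALP and 243 and 248 in control, with overlapping groups. That of all ligand genes was 273 and 243 CPM per kb against 333 and 332, without overlap. The ligand genes did not move as one. Efna1 had a mean of 33.7 CPM per kb in ALP and 77.2 in control, and Sema3c 79.8 and 82.6. The B-type ephrin sum was higher in ALP, at 49.6 and 58.0 against 34.0 and 38.8.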

How the data were processed

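RNA of 2 ALP-treated and 2 control EpSC libraries was sequenced after extraction with TRIzol, per the labels' protocols. Per the submitters' processing notes, the authors used HISAT2 2.0.5 for alignment and featureCounts 1.5.0-p3 for counting. A human build is named there, but 54495 of the 54532 gene identifiers occur in GENCODE M21 and 98.3% of these have the same coordinates, so positions are given as GRCm38. Neither strandedness nor layout is given in the sources used here, and antisense reads cannot be told apart. The authors deposited raw counts per gene and library, which are not normalized. For the log2 fold changes and p-values that the authors deposited, no source used here names the test. Its normalized signal columns, deposited as group means, were not used. No row lacked a gene name, and 27 symbols turned into dates were restored by identifier. The numbers in the column names, 2 and 3 for ALP and 1 and 3 for control, differ from those in the sample titles, so each count column was assigned to its group only, and the columns are called replicates A and B in that order. For the same reason 4 columns of FPKM, a second set of per-sample values, were not used, and levels per length were computed as TMM-scaled CPM divided by the deposited gene length in kb, although FPKM had been planned.

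The whole table was fitted in R 4.3.3 with edgeR 4.0.16: filterByExpr (minimum count 10, minimum total 15), TMM scaling, glmQLFit and glmQLFTest (two-sided) with the group alone. Benjamini-Hochberg adjustment ran over the 14056 genes kept, and genes were called at an adjusted p under 0.05. Residual degrees of freedom were 2, and the common biological coefficient of variation was 0.144. A standard error is the ratio of the log2 fold change to the root of its F statistic. The fit was tested on simulated data. Alternatives were DESeq2 size factors, library totals, DESeq2 1.42.0's Wald test, limma-voom 3.58.1, no low-count filter, a minimum count of 50, and leaving out each library. The form of edgeR's fit used by earlier versions was added after seeing the data.

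Every guidance gene that was called, that had a group mean of at least 20 CPM, or that led its class per length was named with all its values (34 genes), and the others by counts and ranges. Nrp1, Nrp2, Neo1, Dcc and the 5 smallest p-values in each direction were named from the 62 co-receptor and effector genes. The guidance genes, the lists and these rules were chosen with earlier results of these data known. Without molecular identifiers, reads are not independent molecules, and the floors cover counting error only.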

Additional observations from a re-analysis of the deposited data

How the results depend on the processing

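No paired analysis was possible because the column numbers, 2 and 3 for ALP and 1 and 3 for control, have only 1 number in common between the groups, and they do not match the numbers of the labelled samples. All 21 called guidance genes kept their direction in every alternative that tested them, which was 18 of them under the stricter low-count filter. With DESeq2 size factors, library totals alone, DESeq2's Wald test, limma-voom, the stricter filter and the earlier form of the fit, 20, 20, 17, 22, 18 and 20 guidance genes were called. Without a low-count filter edgeR called 0 genes in each direction over all genes, the guidance genes and the co-receptor and effector genes, with 7068, 30 and 33 genes at an unadjusted p under 0.05. That alternative adjusts over 25280 genes in place of 14056. With one library left out, the called genes over the 4 fits ranged from 0 to 3872 higher and 0 to 3646 lower over all genes, from 0 to 8 higher and 0 to 23 lower among guidance genes, and from 0 to 16 higher and 0 to 19 lower among co-receptors and effectors. All zeros came from leaving out control replicate A or B (3380 and 4131 genes at an unadjusted p under 0.05, against 6552 with all libraries), and the largest numbers from leaving out ALP replicate A; the cause was not tested. Where a library is left out, its lone partner is assumed to vary like the other group. The spread then comes from the ALP pair alone without a control, and from the control pair alone without an ALP library. As many guidance genes were called higher without ALP replicate B as without ALP replicate A. The log2 difference of Ephb4, 0.10 and not called, ranged from -0.05 to 0.25 over the fits with one library left out, and was negative without control replicate A. The order of levels by FPKM was not run, since the FPKM columns were not used. Low counts kept 18 guidance genes from being tested. In the 150 promoter bases nearest the start site, the GC box was found in 70% of the tested guidance genes and 56.4% of the tested protein-coding genes.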
